A study of Mus musculus with 23 samples.

Results

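The Slc25 carriers are the largest family of transport proteins in the mitochondrial inner membrane. They were taken here as every probe set of the deposited table whose single gene symbol was Slc25a followed by a number. That choice gave 93 of 45101 probe sets, which stand for 44 genes among the 18193 genes with 1 probe set each. Several probe sets were present for 23 of the 44 genes, and the brightest on average then stood for the gene.

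The study put poly-A RNA of 1 mouse cell type into another with a lipid reagent and measured the RNA of single cells on Affymetrix arrays, after linear amplification. Single fibroblasts given cardiomyocyte RNA (fibroTIPeR, n = 5) stood beside fibroblasts given fibroblast RNA (fibroControl, n = 3), fibroblasts with no transfection (fibroblast, n = 3) and cardiomyocytes with no transfection (cardiomyocyte, n = 4). Astrocytes given cardiomyocyte RNA (astroTIPeR, n = 6) stood beside mock transfected astrocytes (astroControl, n = 2). The labels name no strain, age or genotype. Cells were grown in DMEM with serum. The labels do not say whether cells of a group shared a culture or an animal, so p-values measure the spread between these cells, and the small number of arrays limits their precision.

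Each carrier crosses the membrane several times and moves a particular small molecule, often in exchange for another. The ADP/ATP carriers let ATP made in the matrix leave for the cytosol, the phosphate carrier supplies the ATP synthase, and others move citrate cycle acids, amino acids, cofactors, nucleotides and iron. In heart, where most ATP is made by respiration, Slc25a4 is known as the main ADP/ATP carrier, while Slc25a5 is the form of most other tissues and of dividing cells. Slc25a24 is a calcium-regulated carrier that exchanges ATP-Mg for phosphate and so adjusts the adenine nucleotide pool of the matrix.

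The values are log2 levels after quantile normalization over the 23 arrays, and a difference of group means is a difference of log2 levels. The 15 fibroblast and cardiomyocyte arrays and the 8 astrocyte arrays formed separate sets in the deposited table, so levels set across them rest on that normalization. None of the 253 pairs of arrays held identical values, and their correlations ran from 0.543 to 0.921. The 12 cardiomyocyte markers averaged 8.23 in cardiomyocyte cells and 4.52 to 5.33 in the other groups. The 10 fibroblast markers averaged 8.98 in fibroblast and 6.53 in cardiomyocyte cells. Both lists had members that went the other way between these 2 groups. From fibroblast to cardiomyocyte cells, the fibroblast markers Dcn (8.85 and 10.17) and Thy1 (6.28 and 8.02) were higher. The cardiomyocyte markers Tnnt2 (8.46 and 7.99) and Nppa (5.28 and 4.39) were lower, and all other members of the 2 lists went with the means. The 8 astrocyte markers went against the label, at 7.60 in astroTIPeR and 6.96 in astroControl cells and 8.09 in cardiomyocyte cells. In astroTIPeR and astroControl cells, Gfap, the astrocyte filament protein (4.69 and 5.32), and Aldh1l1 (4.16 and 3.54) lay under the median of all genes. Gja1 (11.16 and 11.14), Slc1a3 (10.49 and 9.95), Slc1a2 (8.82 and 6.50) and S100b (8.30 and 6.99) lay above it, as did Glul. Each of these except S100b was highest in cardiomyocyte cells. Aqp4 lay near it, at 5.70 and 6.21. The 6 macrophage and microglia markers averaged 6.55 and 6.11 in the astrocyte groups, and 4.95 to 5.72 in the others. This list was split too. Lyz2 stood out in astroTIPeR and astroControl cells (9.89 and 7.99, against 5.10 to 5.93 elsewhere), and Cd68 and Aif1 were also highest there. Csf1r was highest in fibroblast cells (11.02) and Ptprc in cardiomyocyte cells (5.16). Itgam was highest in astroTIPeR (4.40) and lowest in astroControl cells (3.68). The 18S ribosomal RNA control probes read 11.03 to 13.48 in fibroTIPeR 1 to 3 and in the fibroControl cells, and 6.94 to 9.57 in every other cell.

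The 250 bases before the start of the 3 genes shown per cell are printed because the per-cell results turn on these genes. They are from RefSeq on mouse build GRCm38.p6, written 5′ to 3′ on the gene's strand: Slc25a4 at chr8:46211063-46211312 on the minus strand, Slc25a5 at chrX:36795347-36795596 on the plus strand and Slc25a24 at chr3:109122899-109123148 on the plus strand. Capitals mark matches to the CCAAT box (CCAAT) or the GC box (GGGCGG), looked for on both strands, so that a GC box on the other strand reads CCGCCC.
Slc25a4: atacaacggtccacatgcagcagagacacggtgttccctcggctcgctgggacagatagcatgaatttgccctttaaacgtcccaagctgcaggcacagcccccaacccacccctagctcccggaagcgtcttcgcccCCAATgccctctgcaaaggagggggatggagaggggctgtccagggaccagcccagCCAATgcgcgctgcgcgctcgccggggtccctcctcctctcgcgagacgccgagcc
Slc25a5: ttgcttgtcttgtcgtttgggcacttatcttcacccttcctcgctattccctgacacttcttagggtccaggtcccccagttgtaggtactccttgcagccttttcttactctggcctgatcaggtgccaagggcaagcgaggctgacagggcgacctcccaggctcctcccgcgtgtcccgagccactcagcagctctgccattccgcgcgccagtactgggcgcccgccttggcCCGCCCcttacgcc
Slc25a24: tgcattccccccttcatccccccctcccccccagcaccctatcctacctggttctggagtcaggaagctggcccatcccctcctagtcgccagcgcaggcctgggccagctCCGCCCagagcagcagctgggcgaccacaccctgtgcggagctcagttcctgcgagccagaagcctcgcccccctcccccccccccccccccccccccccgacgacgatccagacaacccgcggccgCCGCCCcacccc
The Slc25a4 window held 2 CCAAT boxes, the Slc25a5 window 1 GC box and the Slc25a24 window 2 GC boxes, and the marked matches did not overlap. Their GC content was 64.8%, 61.6% and 72.8%. RefSeq listed 43 promoters for 34 of the 44 Slc25 genes, and a GC box lay in 74.4% of them, against 32.7% of all 32851 promoters. A CCAAT box lay in 46.5% against 33.8%. The TATA box (TATAAA) lay in 2.33% against 12.4%, and the core site of the oestrogen-related receptors (AAGGTCA) in 2.33% against 4.08%. A match is a description of these letters and not of bound protein.

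Across all cells, the Slc25 probe sets with the highest mean signal were those of Slc25a29, a carrier of basic amino acids, at 12.43, and Slc25a44, which carries branched-chain amino acids, at 11.64. Slc25a5 followed at 11.51, the dicarboxylate carrier Slc25a10 at 11.02 and the glutathione carrier Slc25a39 at 10.33. Probe sets differ in brightness, so this order is one of signals and not of RNA amounts between genes. The median of all genes was 5.71, and 28 of the 44 Slc25 genes had a mean above it. The spread between cells of a group was like that of other genes, with a median SD of 1.05 over the Slc25 genes and 0.991 over all genes.

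**Figure D1:**
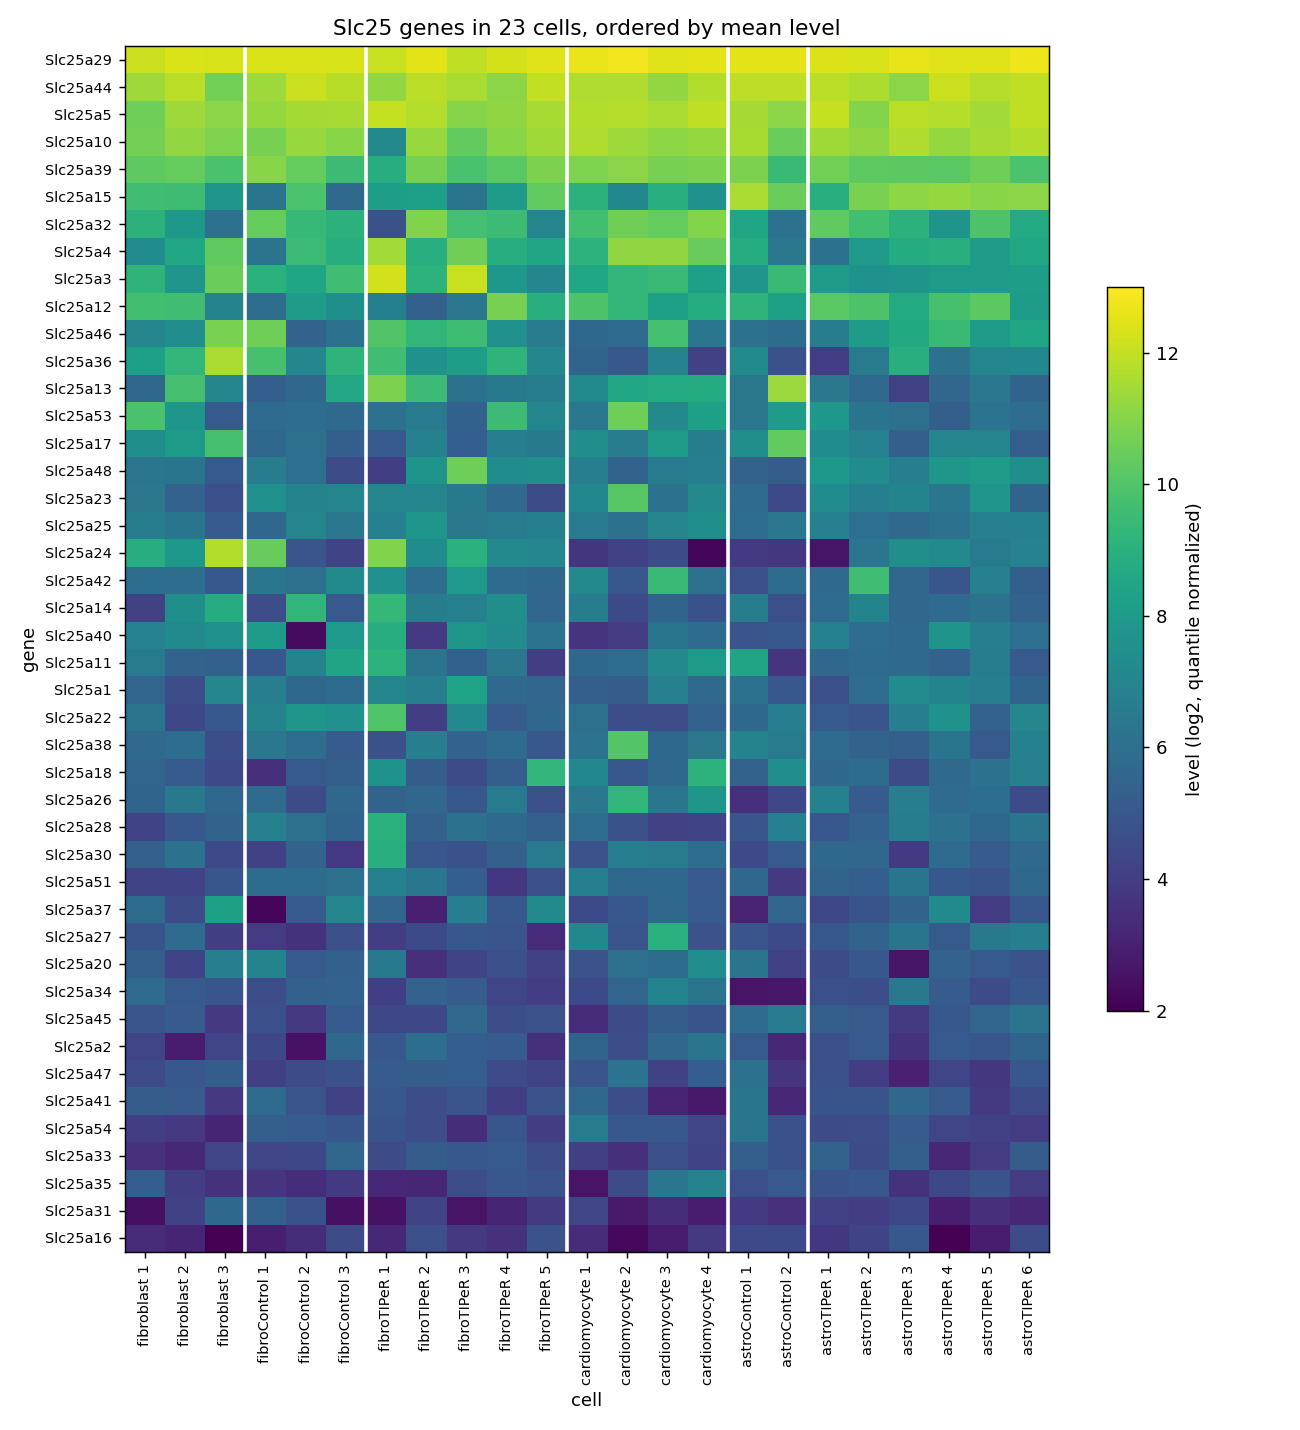
Level (log2, quantile normalized, colour) of the 44 Slc25 genes (rows, ordered by mean) in the 23 cells (columns, with white lines between the groups). The Slc25a29 probe set used, with a mean of 12.43, stayed bright in every cell, while Slc25a24 went from 2.18 in cardiomyocyte 4 to 11.75 in fibroblast 3.

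The members also differed in how much they varied. The brightest probe set of Slc25a29 lay between 11.95 and 12.81 in the 23 cells, with an SD above 17.3% of the 1099 genes near its level. The dimmest of its other 4 probe sets ran from 4.28 to 11.31. The brightest probe set of Slc25a24 covered 9.57 log2 units with an SD of 2.64, more than 99.5% of the 5471 genes within 1 log2 unit of its level. At the other end was the brightest probe set of Slc25a25, a close relative of Slc25a24 that also carries ATP-Mg. It had an SD of 0.58, above 0.258% of the 5420 genes near its level. The other Slc25a25 probe sets ran from 3.21 to 7.01 and from 3.62 to 6.46. Some probe sets thus gave nearly the same signal in every cell, and others varied widely, also between probe sets of 1 gene.

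Slc25a24 was high in untreated fibroblasts and low in cardiomyocytes. The fibroblast cells stood at 8.87, 7.89 and 11.75. The cardiomyocyte cells stood at 3.64, 4.13, 4.52 and 2.18, all under the median of all genes. The fibroTIPeR cells read 10.91, 7.36, 9.04, 7.18 and 7.09, so every one of them lay above every cardiomyocyte cell. Among the fibroControl cells, 1 read 10.44 and the others 4.89 and 4.27. In astrocytes, the astroTIPeR cells ran from 2.63 to 7.45 with a median of 6.70, and the astroControl cells read 3.85 and 3.74. By group mean the order was fibroblast (9.50 ± 2.01, SD, n = 3), fibroTIPeR (8.32 ± 1.65, n = 5), fibroControl (6.53 ± 3.40, n = 3), astroTIPeR (6.17 ± 1.79, n = 6), astroControl (3.79 ± 0.08, n = 2) and cardiomyocyte (3.62 ± 1.02, n = 4). Each pair of neighbours in that order overlapped.

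Slc25a4 had its highest mean in cardiomyocytes. The cardiomyocyte cells stood at 9.12, 11.19, 11.18 and 10.46, and the fibroblast cells at 7.31, 8.56 and 10.30. The fibroTIPeR cells read 11.47, 8.88, 10.61, 8.86 and 8.47, and the fibroControl cells 6.24, 9.48 and 8.83. The astroTIPeR cells ran from 6.09 to 8.92 with a median of 8.30, and the astroControl cells read 8.82 and 6.40. The group means were 10.49 ± 0.97 (SD, n = 4) in cardiomyocyte, 9.66 ± 1.31 (n = 5) in fibroTIPeR, 8.73 ± 1.50 (n = 3) in fibroblast, 8.18 ± 1.71 (n = 3) in fibroControl, 8.05 ± 1.04 (n = 6) in astroTIPeR and 7.61 ± 1.71 (n = 2) in astroControl cells. Neighbours in this order overlapped, and so did cardiomyocyte and fibroblast cells.

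The brightest probe set of Slc25a5 read between 10.56 and 12.04 in every cell, where the 90th percentile of all genes was 10.94. The fibroblast cells read 10.56, 11.38 and 11.08, and the cardiomyocyte cells 11.73, 11.78, 11.62 and 11.96. The fibroTIPeR cells read 12.04, 11.79, 10.99, 11.17 and 11.55, and the fibroControl cells 11.26, 11.50 and 11.58. The astroTIPeR cells ran from 10.95 to 12.04 with a median of 11.81, and the astroControl cells read 11.52 and 11.08. The cardiomyocyte and fibroblast cells did not overlap, although their means, 11.77 ± 0.14 (SD, n = 4) and 11.01 ± 0.41 (n = 3), were close.

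**Figure D2:**
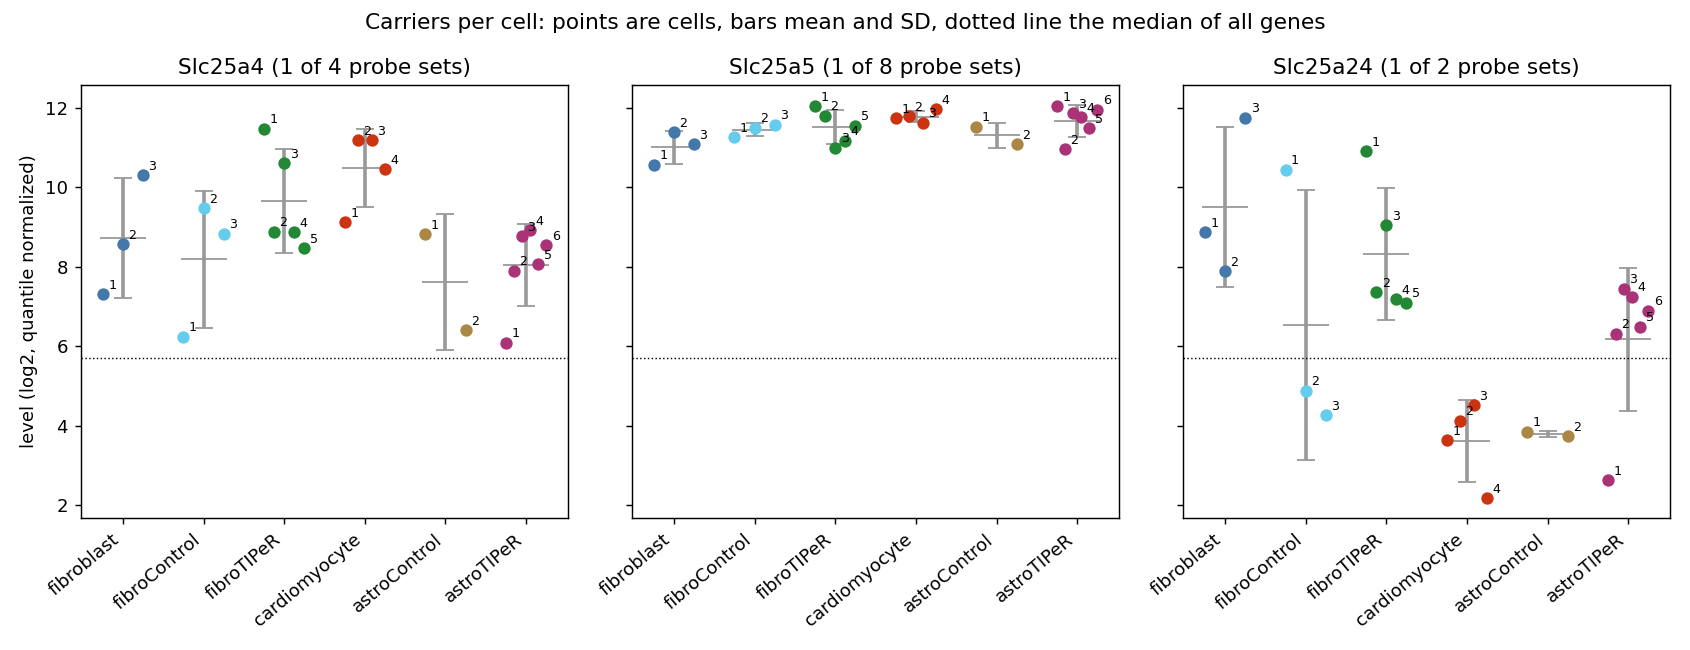
Level (log2, quantile normalized) of Slc25a4, Slc25a5 and Slc25a24 in each cell by group, with cells numbered by replicate, bars for the mean and SD and a dotted line at the median of all genes, 5.71. The cardiomyocyte cells lie at 2.18 to 4.52 for Slc25a24, under the fibroblast cells at 7.89 to 11.75, while the Slc25a5 probe set shown stays between 10.56 and 12.04.

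The probe sets of a carrier often differed. Of the 23 genes with several, 14 to 18 in each of the 7 comparisons had at least 1 whose difference ran opposite to that of the probe set used. The same count over all genes was not made, so it shows nothing particular to the carriers. The Slc25a5 probe set used above was nearly flat, but the mean of the other 7 was 6.96 ± 1.60 (SD, n = 5) in fibroTIPeR, 6.04 ± 0.17 (n = 3) in fibroControl, 5.13 ± 0.36 (n = 3) in fibroblast and 4.86 ± 0.40 (n = 4) in cardiomyocyte cells. It was 9.33 in fibroTIPeR 1, the highest of all cells. In astrocytes it was 5.68 ± 0.55 (n = 6) in astroTIPeR and 5.25 ± 0.67 (n = 2) in astroControl cells. Over the 23 cells, the used probe set correlated with the other 7 at r = -0.04 to 0.65, and the 5 others of the x_at type correlated among themselves at 0.32 to 0.86. The name ending x_at marks probe sets that may bind other transcripts, and Slc25a4 and Slc25a5 are close relatives, so signal between near-identical copies is uncertain for both. For Slc25a4, 3 probe sets correlated at 0.93 to 0.95, and the fourth correlated with them at -0.15 to -0.11. Slc25a24 had a second probe set, which stayed between 2.25 and 6.86 and differed between cardiomyocyte and fibroblast cells by -0.50 (SE 0.82).

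**Figure D3:**
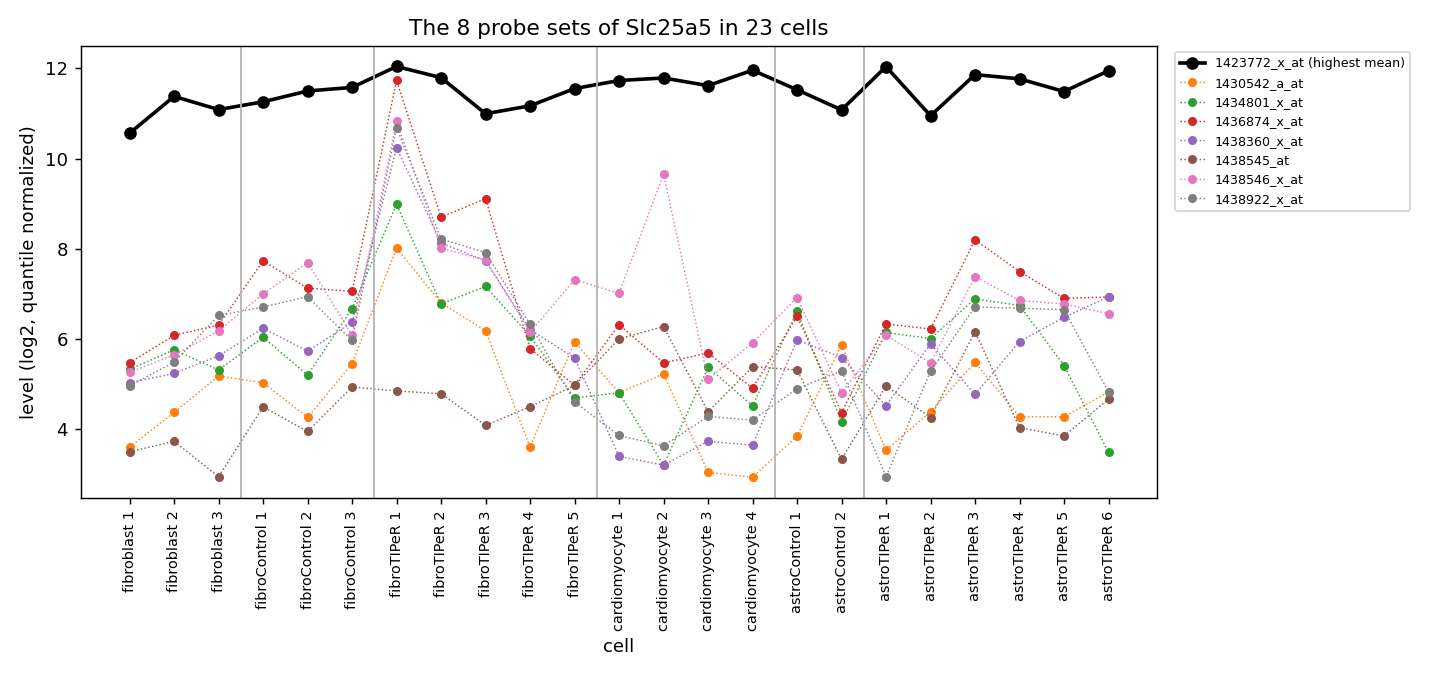
Level (log2, quantile normalized) of the 8 probe sets of Slc25a5 in the 23 cells, with vertical lines between groups and the used probe set in black. The black line stays between 10.56 and 12.04, while the mean of the other 7 reaches 9.33 in fibroTIPeR 1 and lies at 4.51 to 5.24 in the cardiomyocyte cells.

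Cardiomyocytes were compared with untreated fibroblasts to see how the carriers of the donor cell type differ from those of the recipient. Slc25a24 was the gene that passed the test, and it was lower in cardiomyocytes. Its difference was -5.88 (SE 1.29, 95% interval -8.54 to -3.23), with an adjusted p of 0.0480 by limma with Benjamini-Hochberg adjustment over all genes, and the groups did not overlap. So 1 of 44 Slc25 genes was called, against 0.225% of all genes (0.126% lower), and with 44 genes a single call says little about the family. The call was close to the threshold: the adjusted p ran from 0.0155 to 0.146 over the 11 other settings and from 0.0545 to 0.414 when 1 cell was left out. The largest of these was the value without fibroblast 3, where the difference was -4.76. Between these groups, the cell means over the 4 smooth muscle markers also stood apart, at 6.59 to 8.08 in fibroblast and 4.45 to 5.25 in cardiomyocyte cells. The cell means over the 4 endothelial markers stood apart the other way, at 5.25 to 5.92 in fibroblast and 5.998 to 7.72 in cardiomyocyte cells. The endothelial list was split. From fibroblast to cardiomyocyte cells, Kdr (6.08 and 8.23) and Cdh5 (3.92 and 6.22) were higher, and Pecam1 (6.83 and 6.76) and Tek (5.43 and 4.95) lower. The part of either list in the result was not tested.

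Counting Slc25a24, 9 of the 44 genes (20.5%) had an unadjusted p under 0.05 in the limma fit, against 9.72% of all genes. The groups did not overlap for 10 genes (22.7%), Slc25a24 among them, against 12.6% of all genes. The median difference of the Slc25 genes was 0.43, with 30 of 44 above 0, and that of all genes was 0.09. Slc25a36, a pyrimidine nucleotide carrier, is singled out after its values were seen. Its cardiomyocyte cells read 5.55, 4.97, 6.88 and 4.16 and its fibroblast cells 8.20, 9.29 and 11.58. The groups did not overlap, and the difference was -4.30 (SE 1.07) with a limma adjusted p of 0.114. Its other probe sets differed by less, at -0.60 and -1.08.

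Grouped by role, none of the other carriers passed the limma test in this comparison. Among the 10 carriers of adenine nucleotides and phosphate, 6 had differences above 0, with a median of 0.75. They included the calcium-regulated ATP-Mg carrier Slc25a23 at 2.13, Slc25a4 at 1.76 (SE 0.96, adjusted p 0.559) and Slc25a5 at 0.76 (SE 0.30, adjusted p 0.398). The phosphate carrier Slc25a3 differed by -0.25. Of the 7 carriers of citrate, dicarboxylates, aspartate and glutamate, 6 were above 0, from -0.02 for the glutamate carrier Slc25a22 to 1.66 for its relative Slc25a18. Of the 7 carriers of nucleotides, cofactors and S-adenosylmethionine, 5 were above 0, led by Slc25a32, which carries folate or FAD, at 2.73. The dimmer Slc25a32 probe sets averaged 3.82 and 3.67 in cardiomyocyte and 3.37 and 3.83 in fibroblast cells. The carnitine carrier Slc25a20, needed to bring fatty acids into the matrix, differed by 0.62, and the glycine carrier Slc25a38 by 1.63, with cardiomyocyte 2 at 10.08 and the other cardiomyocyte cells at 5.65 to 6.36. The outer membrane member Slc25a46 differed by -1.53, while its second probe set differed by 1.55. The iron carriers Slc25a28 and Slc25a37 differed by -0.17 and -1.14. Several of these values leaned on 1 cell. Without cardiomyocyte 2, Slc25a38 differed by 0.63 and Slc25a23 by 1.29. Slc25a18 stood at 0.87 without cardiomyocyte 4, and Slc25a4 at 1.05 without fibroblast 1. Without fibroblast 3, Slc25a37 stood at -0.13 and Slc25a46 at -0.36, and Slc25a3 turned to 0.42 and Slc25a28 to 0.13. The Slc25a20 difference was 0.02 without fibroblast 2.

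The other genes of the pathway were read from 4 lists. None of their members passed the limma test in any of the 7 comparisons. The ATP synthase subunits, which use the phosphate and ADP that the carriers bring in, had 14 of 14 measured genes above 0 in cardiomyocyte minus fibroblast cells, with a median of 0.36. The subunit Atp5c1 had the smallest p among them, at 2.46 with an adjusted p of 0.473. The 12 genes that import carriers into the inner membrane had a median of -0.36, with 4 above 0. The outer membrane receptor Tomm22 was at -2.27 with an adjusted p of 0.413. The 4 measured family members with other symbols were all above 0, with Mtch2, an outer membrane relative, at 1.81 and an adjusted p of 0.470. The 4 measured channels and pyruvate carrier genes had a median of -0.42.

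Cardiomyocyte RNA was compared with fibroblast RNA in fibroblasts, the contrast that holds the transfection itself constant. The carriers gave 0 calls of 44, against 0.0055% of all genes, and 1 gene (2.27%) had an unadjusted p under 0.05 in the limma fit, against 6.62%. None of the 44 had groups apart, against 3% of all genes. The median difference was 0.26, and that of all genes was -0.02. The smallest p belonged to Slc25a30, an uncoupling protein relative, at 1.61 (SE 0.77, adjusted p 0.747), where fibroTIPeR 1 read 8.93 and the other fibroTIPeR cells 4.77 to 6.49. The glutamate carrier Slc25a18 followed at 1.75 (adjusted p 0.785). Slc25a24 differed by 1.79 (SE 1.24, adjusted p 0.842), Slc25a4 by 1.47 (adjusted p 0.828) and Slc25a5 by 0.07. Single cells moved these values: Slc25a24 stood at 3.74 without fibroControl 1 and at 0.65 without fibroControl 3, and Slc25a4 at 0.50 without fibroControl 1. Slc25a30 stood at 0.90 without fibroTIPeR 1, and Slc25a18 at 1.04 without fibroTIPeR 5. By role, the 10 adenine nucleotide and phosphate carriers had 6 differences above 0 with a median of 0.05, and the 7 carriers of citrate, dicarboxylates, aspartate and glutamate had 4 with a median of 0.49. By the probe sets used, all 3 uncoupling protein relatives were above 0, from 0.29 for Slc25a27 to 1.61 for Slc25a30, and none passed. For Slc25a30, 2 of 5 probe sets ran the other way, down to -0.68, while the 4 of Slc25a27 had the same sign. The 8 probe sets of Slc25a5 were all above 0, from 0.07 for the used one to 1.46, and none passed the limma test. Neither the heart form Slc25a4 nor the fibroblast-high Slc25a24 thus separated the recipients of cardiomyocyte RNA from those of fibroblast RNA at this number of cells.

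Set against untreated fibroblasts, the same fibroTIPeR cells again gave 0 calls of 44, against 0.055%, with 2 genes (4.55%) at an unadjusted limma p under 0.05 against 10.1%. The groups were apart for 2 genes (4.55%), against 5.01% of all genes, so neither share was above the background. These were Slc25a17, the peroxisomal carrier of CoA, FAD and NAD, and Slc25a33, a pyrimidine nucleotide carrier. For Slc25a17 the fibroTIPeR cells read 5.10, 6.83, 5.29, 6.72 and 6.45, under the fibroblast cells at 7.48, 8.02 and 9.76. Its difference was -2.34 (SE 0.80, adjusted p 0.330), and that of Slc25a33 was 1.21 (SE 0.53, adjusted p 0.430). The second Slc25a17 probe set differed by -0.50. Its groups overlapped, with fibroTIPeR cells at 4.69 to 9.01 and fibroblast cells at 5.43 to 9.58. Slc25a24 differed by -1.18, Slc25a4 by 0.93 and Slc25a5 by 0.50, and none of these passed. Without fibroblast 3, Slc25a24 stood at -0.06 and Slc25a4 at 1.72, and without fibroblast 1, Slc25a4 stood at 0.22 and Slc25a5 at 0.28.

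Fibroblast RNA was also compared with no transfection. No Slc25 gene was called in the limma fit, against 1.56% of all genes, and 4 (9.09%) had an unadjusted p under 0.05, against 17.3%. The groups were apart for 9 genes (20.5%), against 23.4%. Slc25a17 had the smallest p here too, with fibroControl cells at 5.66, 6.08 and 5.33, all under the fibroblast cells, and a difference of -2.73 (SE 0.90, adjusted p 0.111). The second Slc25a17 probe set differed by -1.48. Its groups overlapped, with fibroControl cells at 5.16 to 6.09 and fibroblast cells at 5.43 to 9.58. This comparison and the one before share the 3 fibroblast cells. Slc25a54, an ATP-Mg carrier relative, was at 1.48 (adjusted p 0.188), and Slc25a24 at -2.97 (SE 1.38, adjusted p 0.265). The Slc25a24 value was -4.92 without fibroControl 1 and -1.84 without fibroControl 3, with limma adjusted p from 0.0787 to 0.577 over the cells left out. When every probe set was tested on its own, 1 of 93 passed, against 1.37% of all probe sets. That was the dimmer probe set of Slc25a3, with fibroControl cells at 6.37, 9.14 and 8.12 and fibroblast cells at 3.96, 3.62 and 2.33, a difference of 4.57 and a limma adjusted p of 0.0493. The brighter Slc25a3 probe set differed by -0.09. The 18S level was 11.63 in fibroControl and 7.45 in fibroblast cells, and its part in these differences was not tested beyond the fit with it as a covariate, where Slc25a24 stood at -5.90. The ATP synthase list had a median of 1.59 in this comparison with 10 of 14 above 0, led by Atp5j2 at 4.33 (adjusted p 0.0755), and the median of all genes was 0.03. In fibroTIPeR minus fibroblast cells, which shares the fibroblast cells, the list had a median of 1.40, also with 10 of 14 above 0. Several of its subunits leaned on fibroTIPeR 1 and 3. Atp5d read 11.27 and 11.45 in those cells and 5.83 to 6.66 in the other fibroTIPeR cells, and Atp5j2 read 10.92 and 9.26 against 4.60 to 6.28. Atp5e showed no such split, at 5.59 and 5.28 against 4.52 to 6.66.

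In fibroTIPeR cells against cardiomyocytes, the question was how far the recipients stood from the donor type. Slc25a24 was 4.70 higher in fibroTIPeR cells (SE 1.14), and its limma adjusted p of 0.0534 just missed the threshold although the groups did not overlap. Slc25a36 was 2.93 higher (SE 0.94, adjusted p 0.172), with fibroTIPeR cells at 9.63, 7.59, 8.18, 9.14 and 7.09, all above the cardiomyocyte cells. However, 1 of the 3 Slc25a36 probe sets ran the other way, at -0.72. The carriers gave 0 calls of 44, against 0.561% of all genes, 10 (22.7%) at an unadjusted p under 0.05 against 14.3%, and 2 (4.55%) with groups apart against 3.9%. Slc25a24 passed under 5 of the other settings, and also without fibroTIPeR 2, 4 or 5, with differences of 4.94, 4.98 and 5.01. With the 18S level as a covariate its difference was 2.57, with a limma adjusted p of 0.9999. The highest adjusted p of Slc25a4, Slc25a5 and Slc25a36 over the other settings was the same, so that value was not particular to Slc25a24. Slc25a4 differed by -0.83 and Slc25a5 by -0.26, and neither passed.

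Tested probe set by probe set, 2 of 93 passed in that comparison, against 0.63% of all probe sets. The first was the Slc25a24 probe set already described, with an adjusted p of 0.0492. The second was a dimmer x_at probe set of Slc25a5, with fibroTIPeR cells at 10.24, 8.13, 7.73, 6.21 and 5.58 and cardiomyocyte cells at 3.40, 3.21, 3.74 and 3.65. The groups were far apart, and the difference was 4.08 (SE 0.72, limma adjusted p 0.0042). The brightest Slc25a5 probe set showed -0.26, another showed -0.87, and the remaining 5 had differences of 1.09 to 3.55. In fibroTIPeR 1 to 3, the cells with the highest values, the 18S control was also high, and its part in the result was not tested.

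**Figure D4:**
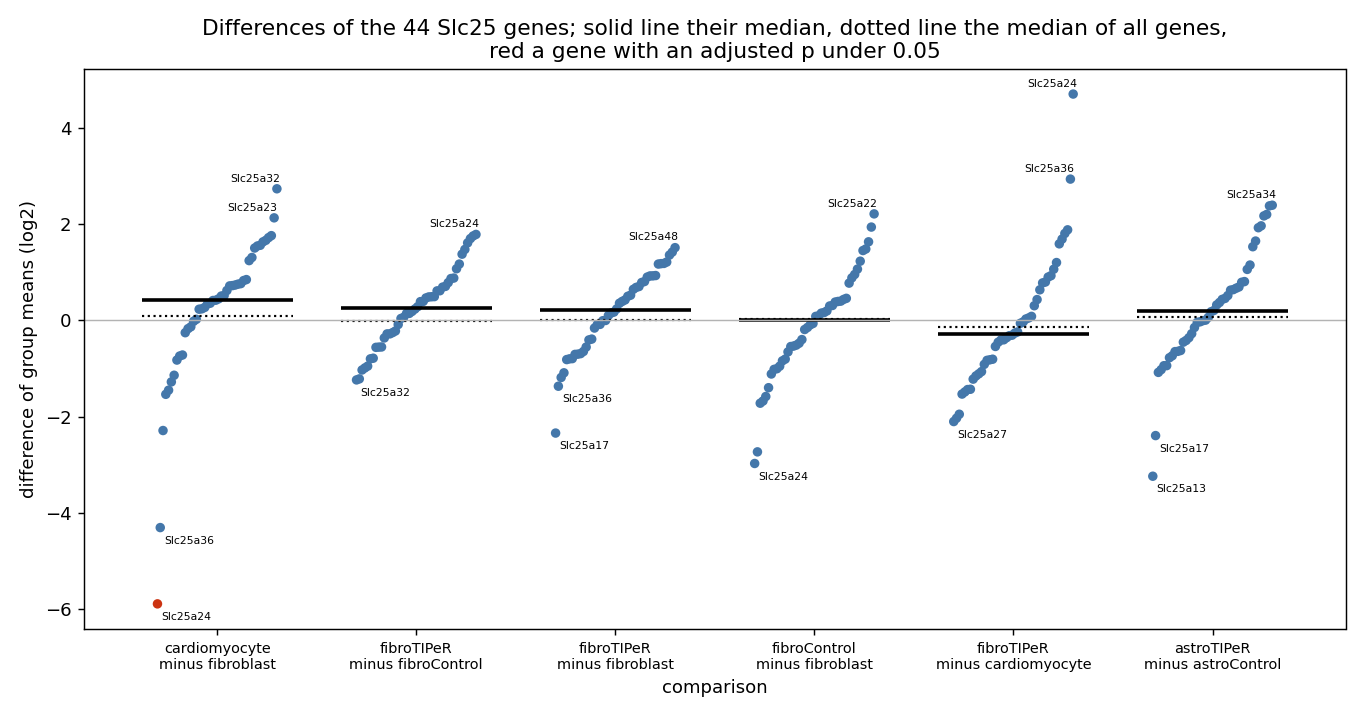
Difference of group means (log2) of each of the 44 Slc25 genes in the 6 comparisons of groups, ordered within a comparison, with a solid line for their median, a dotted line for the median of all genes and red for an adjusted p under 0.05. The red point is Slc25a24 at -5.88 in cardiomyocyte minus fibroblast cells, and the same gene lies at 4.70 in fibroTIPeR minus cardiomyocyte cells.

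In astrocytes, cardiomyocyte RNA was compared with mock transfection. The carriers gave 0 calls of 44, against 0.0495% of all genes, and 5 (11.4%) had an unadjusted limma p under 0.05, against 9.44%. The groups were apart for 7 genes (15.9%), against 11.8%. Slc25a34 had the smallest p. Its astroTIPeR cells ran from 4.53 to 6.40 with a median of 4.83, and its astroControl cells read 2.64 and 2.72, giving a difference of 2.39 (SE 0.64, adjusted p 0.134). Slc25a17 differed by -2.39 (SE 0.90, adjusted p 0.339), with astroTIPeR cells at 5.32 to 7.33 and astroControl cells at 7.44 and 10.34, but its second probe set differed by 3.59. Without astroControl 2 the Slc25a17 difference was -0.94, and without astroControl 1 it was -3.84. Slc25a24 differed by 2.38 (95% interval -0.46 to 5.22, adjusted p 0.632), with 5 of the 6 astroTIPeR cells above both astroControl cells, but its second probe set differed by -0.96. Slc25a4 differed by 0.44 and Slc25a5 by 0.37. By role, 7 of the 10 adenine nucleotide and phosphate carriers were above 0 with a median of 0.29, and 3 of the 7 carriers of citrate, dicarboxylates, aspartate and glutamate with a median of -0.04. With 2 astroControl cells, each of these values leans on single arrays, and without astroControl 1 the count of calls was 1, for Slc25a13, the aspartate and glutamate carrier. That gene read 6.39 in astroControl 1 and 11.36 in astroControl 2.

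Last, the effect of cardiomyocyte RNA in fibroblasts was set against that in astrocytes as a difference of differences. The control was fibroblast RNA in one cell type and mock transfection in the other, so the contrast also holds that difference. No Slc25 gene was called by limma, against 0% of all genes, and 5 (11.4%) had an unadjusted p under 0.05, against 7.65%. The smallest p belonged to Slc25a34 at -2.95 (SE 0.86, adjusted p 0.439) and then Slc25a13 at 4.61 (SE 1.76, adjusted p 0.538). The Slc25a13 value was 2.12 without astroControl 2 and 7.10 without astroControl 1, with limma adjusted p from 0.0675 to 0.954 over the cells left out. The median over the Slc25 genes was -0.09 and that over all genes was -0.09. The 3 genes shown per cell differed by -0.59 for Slc25a24, 1.04 for Slc25a4 and -0.31 for Slc25a5, none of which passed. Without fibroControl 1 the Slc25a24 value turned to 1.36, and without astroControl 1 that of Slc25a4 turned to -0.17.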

How the data were processed

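The deposited table held log2 values of 45101 Affymetrix probe sets in 23 single cells, as the values themselves show. Per the labels, RNA of each cell was amplified, labelled with biotin and hybridised. Background correction, summarization and normalization by the authors were not given in the sources used here. Column medians differed by up to 1.29 log2 units, so quantile normalization over all arrays was applied. Probe names came from the platform annotation: 34945 probe sets had 1 gene symbol, 932 several and 9160 were not listed, and 64 were controls. The probe set with the highest mean stood for its gene.

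Groups came from the sample titles. A model over 6 group means was fitted with limma 3.58.1 (lmFit, eBayes with trend, R 4.3.3) on 18193 genes, with no filter on low values, and tested on simulated data. Benjamini-Hochberg adjustment was made within each of 7 comparisons, not across them, with a threshold of 0.05. Alternatives changed the normalization, the filter, the probe sets of a gene, the variance model, the cells in the fit, the replicate block and an 18S covariate, and left out each cell in turn. Named genes were Slc25a4, Slc25a5 and Slc25a24, every Slc25 gene past the threshold, the 2 with the smallest p where none passed, the 5 with the highest mean, and role members. Members and lists were chosen with earlier results of these data known. Ucp2, Mpc2 and Atp5f1 were not measured under these symbols. Figures were drawn with matplotlib 3.10.9.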

Additional observations from a re-analysis of the deposited data

Results flagged for a closer look

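In 15 of the 132 pairs of a gene and a group of 4 to 6 cells, 1 cell stood apart from the rest of its group by Dixon's criterion, which chance alone meets in about 1 in 20 groups. That is 11.4% of the Slc25 pairs, against 6.75% of the 54579 pairs of all genes. By group it was 2 genes (4.55%) in fibroTIPeR against 5.91%, 5 (11.4%) in cardiomyocyte against 6.12%, and 8 (18.2%) in astroTIPeR against 8.22%. Whether the carriers differ from other genes in this was not tested. AstroTIPeR 1 was low for Slc25a24 at 2.63, where the other astroTIPeR cells read 6.32 to 7.45. The same cell was low for Slc25a4 at 6.09 and for the ornithine carrier Slc25a15 at 8.89, and high for Slc25a53 at 7.87. AstroTIPeR 3 was low for Slc25a13 at 4.12, for the carnitine carrier Slc25a20 at 2.64 and for Slc25a30 at 3.87, and high for Slc25a34 at 6.40.

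FibroTIPeR 1 was low for the dicarboxylate carrier Slc25a10 at 7.17, where the other fibroTIPeR cells read 10.34 to 11.42, and high for the iron carrier Slc25a28 at 9.02. Cardiomyocyte 1 was low for Slc25a13 at 7.23. Cardiomyocyte 2 was high for the glycine carrier Slc25a38 at 10.08 and low for Slc25a48 at 5.49. Cardiomyocyte 3 was high for Slc25a46 at 9.70 and low for Slc25a44 at 11.20, although the other cardiomyocyte cells lay close by at 11.69 to 11.74.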

How the results depend on the processing

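The counts of Slc25 genes past the threshold were small, so single arrays and settings moved them. In cardiomyocyte minus fibroblast cells the count of 1 was 0 with values as deposited, median centring, quantile normalization within each array set, the mean of all probe sets, every probe set on its own, no trend, the compared groups alone and the replicate block, and 0 to 0 with each cell left out. It stayed at 1, for Slc25a24, among genes above the median level, with the robust fit and with the 18S covariate. In fibroTIPeR minus cardiomyocyte cells the count of 0 was 1 among genes above the median level, with the mean of probe sets, the robust fit and the compared groups alone, 2 with every probe set, and 0 to 1 with a cell left out. In fibroControl minus fibroblast cells it was 1 with every probe set and 0 otherwise. In astroTIPeR minus astroControl cells it was 0 to 1 with a cell left out, the 1 being without astroControl 1, where the lone control cell is assumed to vary like the other groups. The remaining 3 comparisons gave 0 under each setting run. With the mean of all probe sets, Slc25a5 turned to -0.14 in cardiomyocyte minus fibroblast cells and to 1.80 in fibroTIPeR minus cardiomyocyte cells, and Slc25a17 to 0.60 in astroTIPeR minus astroControl cells. With the 18S covariate, Slc25a4 turned to -0.45 in fibroTIPeR minus fibroblast cells. With a cell left out, Slc25a5 ran from -0.067 to 0.19 in fibroTIPeR minus fibroControl cells, and Slc25a4 from -1.25 to 0.43 in fibroControl minus fibroblast and from -0.77 to 1.64 in astroTIPeR minus astroControl cells. The cause of these changes was not tested. For cells of the same replicate number, the correlation of deviations from the group means was looked at over 44 pairs. It ran from -0.34 to 0.29 with a median of 0.004, and 8 pairs were over 0.1. Pairs of unlike number were not set beside them, so whether cells shared a culture or animal was not tested. The main fit did not take the numbers to pair cells. With the replicate block, Slc25a24 stood at -5.71 in cardiomyocyte minus fibroblast cells with a limma adjusted p of 0.146. Of the values of single genes over all settings, 520 kept their direction and side of the threshold, 8 passed it, 15 no longer did and 10 reversed. The 15 were all Slc25a24 in cardiomyocyte minus fibroblast cells, and the 8 all Slc25a24 in fibroTIPeR minus cardiomyocyte cells. Every other named result lay above the threshold in the main fit, so keeping its side of it says little.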
